A study of Mus musculus with 36 samples.

Results

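Cathepsins are the proteases of the lysosome, and 10 of their genes (Ctsa, Ctsb, Ctsc, Ctsd, Ctse, Ctsh, Ctsk, Ctsl, Ctss and Ctsz) were followed across 6 treatments of the mouse lung. They were chosen by symbol as the rows carrying these names in both count tables, and all 10 of the 18691 gene names of the series were found and passed the filter on low counts in every comparison. The left lung of 36 wild-type C57BL/6 mice was sequenced, 3 female and 3 male mice in each group. Each mouse was 8 weeks old at the start and received 50 µL on days 0, 7 and 13 and was killed on day 14. The groups were saline (control), MC252 crude oil from the Deepwater Horizon well (oil), the dispersant Corexit 9500 (9500), the dispersant Corexit 9527 (9527), and oil mixed with either dispersant (9500+oil, 9527+oil). All fractions were given at 0.1 strength. The paper describes oropharyngeal aspiration of a saline-accommodated fraction, and the labels describe intratracheal instillation and a water-accommodated fraction. Female and male mice were treated separately and are in separate tables, so sex and treatment session cannot be told apart.

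Cathepsins are made as inactive precursors, are sorted to the lysosome by mannose 6-phosphate, and are activated by its low pH. Cysteine cathepsins are held in check by cystatins and related inhibitors. In the lung, alveolar macrophages and type 2 cells are rich in them, and they are known for surfactant protein processing, antigen presentation and the breakdown of elastin and collagen. Ctsd and Ctse are aspartic proteases, Ctsa is a serine carboxypeptidase that also protects neuraminidase and beta-galactosidase, and the other 7 are cysteine proteases. Of these, Ctsb, Ctsc, Ctsh and Ctsz trim the ends of proteins as well as, for Ctsb, cutting inside them, and Ctsk, Ctsl and Ctss cut inside proteins.

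Between 17501180 and 30011557 counts were assigned per mouse. In 4 female libraries, 1 each of saline (mouse 3), oil (mouse 6), 9527 (mouse 11) and 9500+oil (mouse 14), mitochondrial genes took 20.7 to 45.1% of the counts, against 6.16 to 11.3% in the other 14 female and 5.27 to 7.68% in the 18 male libraries. In these 4 libraries Ctsa, Ctsb, Ctsd and Ctsh were below all 14 other female libraries, with 142 to 330 CPM of Ctsd, for instance, against 516 to 785 CPM. CPM are counts in a library scaled to 1000000 counts, after correction by the trimmed mean of M values. The other 6 members overlapped between the 4 and the 14 libraries, and the medians of Ctsc, Ctsk and Ctss were 1.31, 1.39 and 1.32 times as high in the 4 libraries. Type 2 cell markers of the lung (8 genes, among them Sftpc and Sftpb) summed to 9243 to 26565 CPM across the 36 libraries. In whole lung, a change in the number of cells of a type and a change in RNA per cell cannot be told apart.

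Positions are those of GENCODE M21 on GRCm38. Ctsk (chr3:95499256-95509362) and Ctss (chr3:95526786-95556403), both on the plus strand, are neighbours with 17423 bases between them. Ctsc (chr7:88278085-88310888) and Ctsd (chr7:142375911-142388038) share chromosome 7, and Ctsa (chr2:164832873-164841032) and Ctsz (chr2:174427493-174439039) share chromosome 2. Ctsb (chr14:63122462-63145923), Ctse (chr1:131638306-131675505), Ctsh (chr9:90054152-90076089) and Ctsl (chr13:64359337-64370890) are each on a chromosome of their own.

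RefSeq promoter windows (GRCm38.p6, 250 bases before to 50 after a transcription start) were at hand for 7 of the 10 members, and Ctsa has 2 of them. The windows of the 4 available members with the largest fold changes of 9527 over saline (Ctsk, Ctss, Ctsc and Ctsz) are shown, then that of Ctsd, a member whose groups overlapped, to compare their letters. Capitals mark matches on either strand to the extended E-box TCACGTGA or its core CACGTG, the kind of site bound by TFEB, the regulator of lysosome genes, and to GAGGAAGT, a site of the myeloid factor PU.1.
Ctsk (chr3:95498960-95499259, plus strand): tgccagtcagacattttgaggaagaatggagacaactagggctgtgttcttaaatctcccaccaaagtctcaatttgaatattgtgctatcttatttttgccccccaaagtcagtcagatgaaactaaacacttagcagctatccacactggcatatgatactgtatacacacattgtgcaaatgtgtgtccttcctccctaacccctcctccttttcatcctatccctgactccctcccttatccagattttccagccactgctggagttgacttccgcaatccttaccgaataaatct
Ctss (chr3:95526536-95526835, plus strand): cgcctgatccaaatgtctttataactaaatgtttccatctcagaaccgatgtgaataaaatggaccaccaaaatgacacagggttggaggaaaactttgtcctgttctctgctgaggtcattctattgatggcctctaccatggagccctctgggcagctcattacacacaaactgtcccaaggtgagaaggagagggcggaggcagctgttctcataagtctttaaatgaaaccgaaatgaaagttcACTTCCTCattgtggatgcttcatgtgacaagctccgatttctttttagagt
Ctsc (chr7:88277835-88278134, plus strand): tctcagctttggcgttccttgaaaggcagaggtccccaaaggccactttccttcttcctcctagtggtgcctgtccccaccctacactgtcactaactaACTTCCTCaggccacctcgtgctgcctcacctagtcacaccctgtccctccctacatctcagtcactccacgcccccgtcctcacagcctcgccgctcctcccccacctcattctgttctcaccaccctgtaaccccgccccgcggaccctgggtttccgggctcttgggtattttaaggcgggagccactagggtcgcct
Ctsz (chr2:174438990-174439289, minus strand): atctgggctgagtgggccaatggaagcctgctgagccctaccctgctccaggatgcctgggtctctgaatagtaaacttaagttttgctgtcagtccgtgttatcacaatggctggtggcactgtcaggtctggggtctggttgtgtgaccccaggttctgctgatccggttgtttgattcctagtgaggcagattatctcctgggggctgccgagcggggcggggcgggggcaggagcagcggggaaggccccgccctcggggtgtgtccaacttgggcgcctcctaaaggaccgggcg
Ctsd (chr7:142387778-142388077, minus strand): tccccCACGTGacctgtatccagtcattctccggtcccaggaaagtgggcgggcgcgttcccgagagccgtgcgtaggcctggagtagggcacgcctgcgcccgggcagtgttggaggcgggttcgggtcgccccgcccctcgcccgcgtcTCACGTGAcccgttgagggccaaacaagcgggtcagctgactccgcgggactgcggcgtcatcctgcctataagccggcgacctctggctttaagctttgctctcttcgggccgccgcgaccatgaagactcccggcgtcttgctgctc
Of 32851 promoter windows, 0.974% hold TCACGTGA, 7.15% hold CACGTG (which every extended E-box also contains) and 3.2% hold GAGGAAGT. The extended E-box was in the window of Ctsd, 99 bases before the start, and 2 times in the second window of Ctsa, with first bases at -13 and 5 (the start being 1). The core alone was also at the far end of the Ctsd window and in that of Ctsl. The PU.1 letters were in the windows of Ctss, 2 bases before the start, and Ctsc, 151 bases before it. None of these letters was in the windows of Ctsk and Ctsz or in the first window of Ctsa. The longer form of the extended E-box with a further G before and a further C after it (0.326% of windows) and the AP-1 site TGAGTCA (5.2%) were in no member's window. A match is a description of these letters and not evidence of binding.

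In the lungs of saline mice, the members differed widely in level. Per kilobase of transcript, the aspartic protease Ctsd was the most abundant in male saline mice, with 345 ± 31.1 CPM per kilobase (mean ± SD, n = 3). Ctsh, which processes surfactant protein B and C precursors, followed with 189 ± 14.5 CPM per kilobase. Ctss (148 ± 26.5), Ctsb (119 ± 5.52), Ctsc (108 ± 9.16) and Ctsz (103 ± 9.59, all in CPM per kilobase) formed a middle group whose ranges overlapped from each member to the next. Below them were Ctsa with 64.4 ± 6.47, Ctsl with 31.7 ± 1.89 and Ctsk with 15.2 ± 0.912 CPM per kilobase, with no overlap between neighbours in the order. Ctse, known from stomach and immune cells, was near the limit of the assay with 1.21 ± 0.691 CPM per kilobase. Female saline mice had Ctsd at 269 ± 173, Ctss at 167 ± 35.8 and Ctsh at 117 ± 45.5 CPM per kilobase, and the wide spread of Ctsd and Ctsh came from mouse 3. In that mouse Ctse had 0 of 17501180 counts, which allows up to 0.349 CPM (counting error only).

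**Figure D1:**
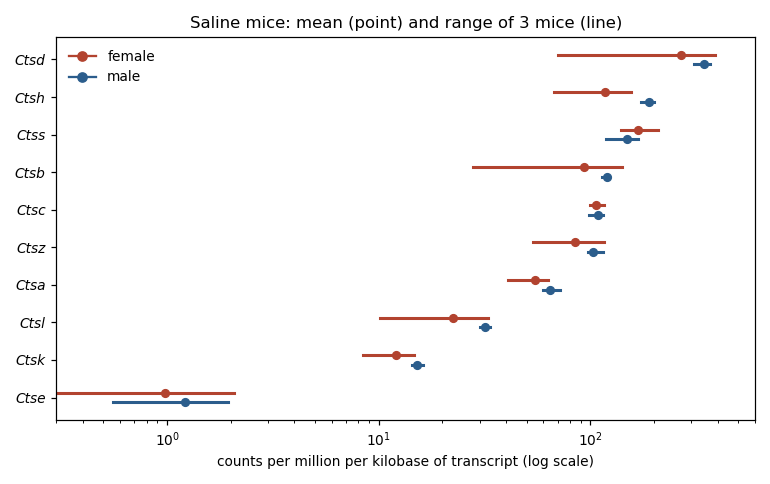
Level of each cathepsin in saline mice, in CPM per kilobase of transcript on a log axis, with points for means and lines from the lowest to the highest of 3 mice. Ctsd leads in both sexes and Ctse is lowest, and the female line of Ctse runs off the axis because 1 mouse had a count of 0.

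The question of the first comparison was which members differ after Corexit 9527. Ctsk, the collagen- and elastin-cutting cathepsin best known from osteoclasts, stood highest. Female 9527 mice had 60.0, 36.1 and 62.2 CPM, against 19.8, 22.1 and 12.8 CPM in saline mice. Male 9527 mice had 47.2, 52.4 and 34.1 CPM, against 23.0, 21.7 and 24.4 CPM in saline mice. Every 9527 mouse was above every saline mouse of its sex. Over both sexes the log2 fold change of Ctsk was 1.24 ± 0.21 (SE, here and below), or 2.36-fold, with an adjusted p of 0.168 by edgeR's quasi-likelihood test. Ctsk therefore did not pass the threshold of 0.05 with all 12 mice.

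Ctsc, which activates the granule proteases of neutrophils and cytotoxic cells, also showed no overlap in either sex. Its levels were 393, 383 and 395 CPM in female and 413, 417 and 439.8 CPM in male 9527 mice. Saline mice had 285, 296 and 331 CPM (female) and 280.0, 329 and 321 CPM (male). The difference was small, a log2 fold change of 0.40 ± 0.12 with an adjusted p of 0.681.

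Ctss, which cuts the invariant chain during antigen presentation and stays active at neutral pH, reached 335, 390.0 and 318 CPM in female and 305, 308 and 268 CPM in male 9527 mice. In saline mice it was at 189, 209.6 and 281 CPM (female) and 217, 159.9 and 226 CPM (male). The groups did not overlap in either sex, and the log2 fold change was 0.58 ± 0.15 (adjusted p = 0.592). For Ctsk, Ctsc and Ctss, the second female 9527 value is mouse 11 and the third female saline value is mouse 3. Both libraries had a high mitochondrial share.

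Ctsh and Ctsz, an aminopeptidase and a carboxypeptidase, were apart in male mice only. Male 9527 mice had 508, 559 and 476 CPM of Ctsh against 279, 312 and 324 CPM in saline mice. Ctsz was at 217, 250.3 and 224 CPM against 164, 141 and 140.1 CPM. In female 9527 mice the values were 320.4, 132 and 341 CPM of Ctsh and 226, 87.5 and 207 CPM of Ctsz. The second of the 3 values in each case is mouse 11, a library with a high mitochondrial share, which lay among the saline mice (252, 208 and 108 CPM of Ctsh and 123, 167 and 77.2 CPM of Ctsz). Over both sexes the log2 fold changes were 0.62 ± 0.25 for Ctsh and 0.57 ± 0.24 for Ctsz, neither past the threshold.

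The remaining members overlapped with saline over both sexes. Ctsd and Ctsb, the abundant housekeeping proteases of the lysosome, had 799, 670.2 and 1151 CPM and 651, 705 and 853 CPM in male 9527 mice, against 746, 723 and 627 CPM and 582, 581 and 536 CPM in saline mice. Ctsb was apart in male mice, while Ctsd was not. Ctsa had 222, 226 and 222 CPM in male 9527 and 222, 185 and 191 CPM in male saline mice. Ctsl, known for proteolysis in keratinocytes, thymus and macrophages, had 117, 98.7 and 152 CPM in male 9527 and 137, 127 and 122 CPM in male saline mice, with mouse 12 above and the others below all saline mice. Ctse ran from 0.634 to 2.95 CPM in the 6 mice treated with 9527.

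Of the 10 members, 0 had an adjusted p under 0.05 for 9527 over both sexes, where 5 of 15332 genes (0.0326%) did. An unadjusted p under 0.05 with a higher level was found for 5 members (Ctsc, Ctsh, Ctsk, Ctss and Ctsz), against 2.26% of all genes. In 3 members the groups did not overlap in either sex, against 0.946% of all genes. The median log2 fold change of the 10 members was 0.31, and that of all genes was 0.01. DESeq2 called 2 members (Ctsc and Ctsk; 0.828% of all genes), and limma-voom with sample quality weights called 5 (5.2%).

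Without the 4 libraries of high mitochondrial share, of which saline mouse 3 and 9527 mouse 11 enter this comparison, 5 members passed, against 2.12% of all genes. They were Ctsk (1.19 ± 0.14, adjusted p = 0.00382), Ctsh (0.66 ± 0.09, adjusted p = 0.0054), Ctsz (0.62 ± 0.10, adjusted p = 0.00995), Ctsc (0.45 ± 0.07, adjusted p = 0.0105) and Ctss (0.62 ± 0.10, adjusted p = 0.0139). In each of the 5, the remaining 9527 mice were above all remaining saline mice of their sex, against 4.29% of all genes. The log2 fold changes moved by less than the standard error of the fit with all mice, and the standard errors became smaller, from 0.25 to 0.09 for Ctsh. The other 5 members had log2 fold changes from -0.09 to 0.21 in this fit and did not pass.

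**Figure D2:**
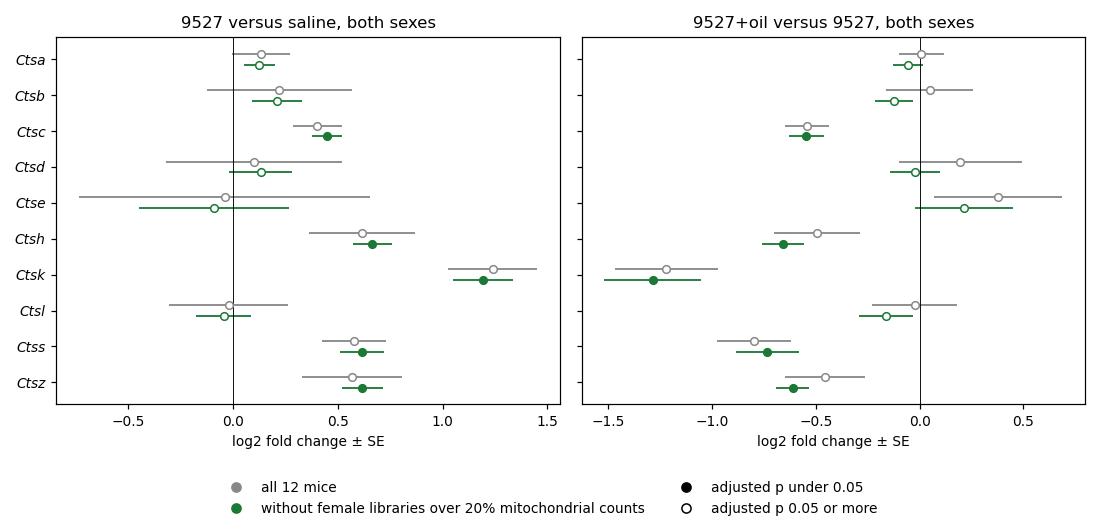
Log2 fold changes with their standard errors for the 10 cathepsins, for 9527 against saline (left) and 9527+oil against 9527 (right), with all 12 mice in grey and without the female libraries over 20% mitochondrial counts in green. Filled points have an adjusted p under 0.05: there are 5 green ones on each side (Ctsc, Ctsh, Ctsk, Ctss and Ctsz) and no grey one.

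Within the male mice alone, where no library had a high mitochondrial share, 3 members lay just above the threshold. Ctsh had a log2 fold change of 0.76 ± 0.11 (adjusted p = 0.0558), Ctsz of 0.64 ± 0.11 (adjusted p = 0.056) and Ctsk of 0.96 ± 0.16 (adjusted p = 0.0604). Again 0 of 10 members passed, where 0.114% of genes did, and 6 members (with Ctsb, Ctsc and Ctss) had an unadjusted p under 0.05 with a higher level, against 7.96% of all genes. The groups did not overlap for the same 6, all higher, against 10.5% of all genes. DESeq2 called all 6 (3.98% of all genes), limma-voom 3 (0.744%; Ctsh, Ctsk and Ctsz), edgeR with no filter on low counts the same 3 (0.385%), and edgeR with all 6 male groups in the fit 4 (1.83%; with Ctsc). Without male 9527 mouse 12, the same 3 members (Ctsh, Ctsk and Ctsz) passed, against 1.39% of genes.

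Within the female mice alone, Ctsk had the largest log2 fold change of any member, 1.52 ± 0.39, and Ctss (0.60 ± 0.34) and Ctsc (0.35 ± 0.31) also did not overlap with saline, 3 members against 2.92% of all genes. Of all genes, 0 of 15004 passed the threshold, and no member did (1 member, Ctsk, against 0.247% of genes at an unadjusted p under 0.05). Without the 4 libraries, which leaves 2 mice against 2, the log2 fold change of Ctsk was 1.54 ± 0.18, and 0 members passed. In that fit 5 members (Ctsc, Ctsh, Ctsk, Ctss and Ctsz) had an unadjusted p under 0.05 with a higher level (2.97% of genes), 6 were higher without overlap (with Ctsa; 16.8% of genes) and Ctsd was lower without overlap (16.2% of genes). The difference between the sexes, tested as a sex-by-treatment interaction, did not pass for any member in any of the 5 treatments (0 of 10 each; 0% of all genes passed, and no member had an unadjusted p under 0.05 with all mice). Again 0 members passed for any treatment without the 4 libraries. Of all genes, 0.00641% passed there for oil, 0.0064% for 9527+oil and 0% for each other treatment. At an unadjusted p under 0.05 there were then Ctsk for 9527 (smaller in male mice; 1.31% of genes), Ctsk for 9500+oil (larger in male mice; 1.41%), and Ctsb and Ctsd for 9527+oil (larger in male mice; 4.19%), besides the members given for oil further on. For Ctsk after 9527 the male minus female difference in log2 fold change in the fit with all mice was -0.57 ± 0.40.

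**Figure D3:**
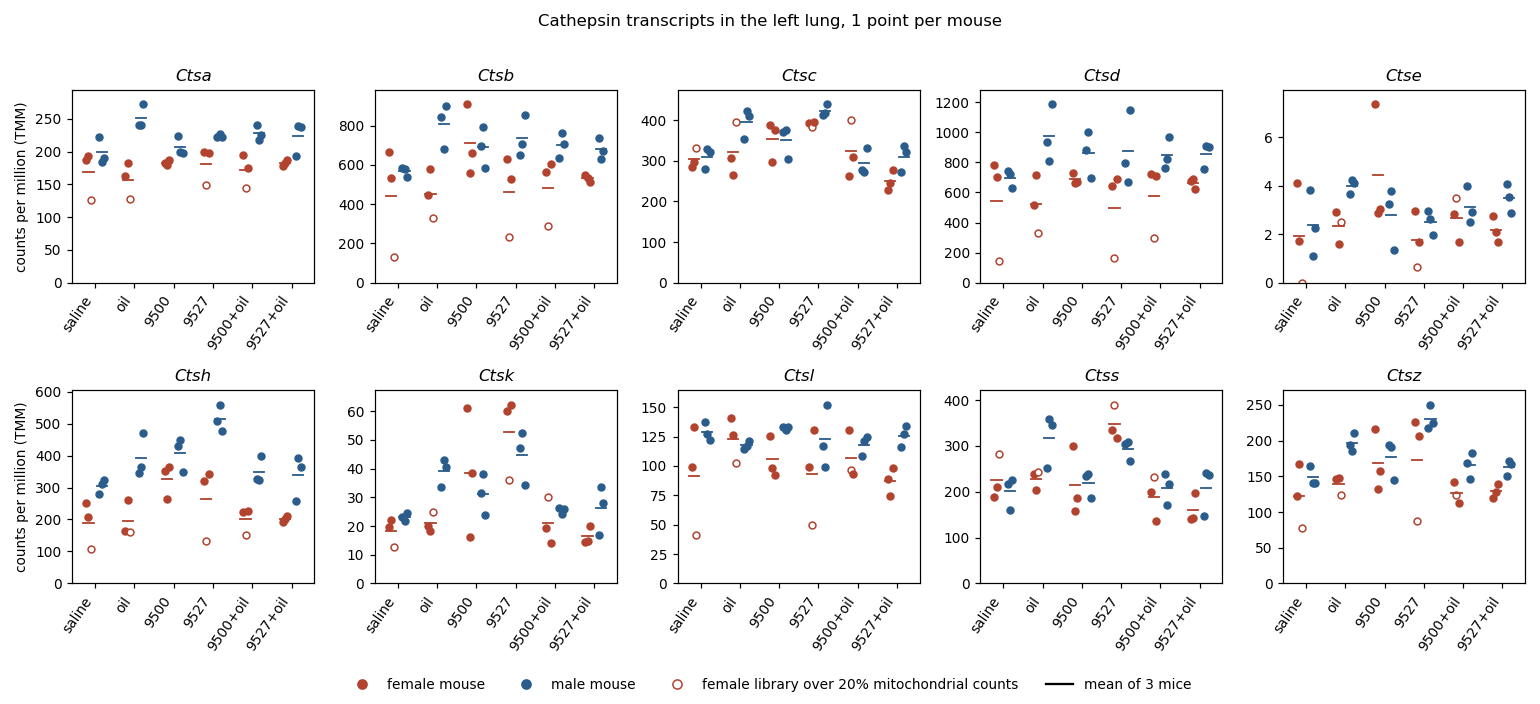
CPM of each cathepsin in every mouse by treatment, with female mice in red, male mice in blue and bars for means of 3 mice. Open circles are the 4 female libraries with over 20% mitochondrial counts, which lie low for Ctsa, Ctsb, Ctsd and Ctsh, and for Ctsk all 9527 mice lie above the saline mice of their sex.

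The next comparison asked what the addition of oil to Corexit 9527 did. Ctsk was at 14.3, 14.7 and 20.1 CPM in female and 16.9, 33.6 and 28.2 CPM in male mice given 9527+oil. All of these were below every 9527 mouse of the same sex, a log2 fold change of -1.22 ± 0.25 with an adjusted p of 0.0618. Ctsc was at 228, 244 and 277 CPM (female) and 272, 336 and 321 CPM (male), again with no overlap, and had a log2 fold change of -0.54 ± 0.11 with an adjusted p of 0.0509. Ctss was at 142, 143 and 198 CPM (female) and 147, 241 and 237 CPM (male), with a log2 fold change of -0.80 ± 0.18 (adjusted p = 0.084). These 3 members without overlap compare with 3.39% of all genes.

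With all mice, 0 of 10 members passed the threshold for 9527+oil against 9527, where 86 of 15399 genes (0.558%) did, and 5 members had an unadjusted p under 0.05 with a lower level, against 8.73% of genes. DESeq2 called 3 members (Ctsc, Ctsk and Ctss; 4.13% of genes), and limma-voom called 5 (10.1%). Without male 9527 mouse 12, 1 member passed (Ctsk; 0.823% of genes). Without female 9527 mouse 11, the only library of high mitochondrial share in these groups, 5 members passed, all lower, against 6.62% of genes. Ctsz had a log2 fold change of -0.61 ± 0.08 (adjusted p = 0.00362), Ctsc of -0.55 ± 0.08 (adjusted p = 0.00514), Ctsh of -0.66 ± 0.10 (adjusted p = 0.00514), Ctsk of -1.29 ± 0.23 (adjusted p = 0.00976) and Ctss of -0.73 ± 0.15 (adjusted p = 0.0176). These are the same 5 genes as in the comparison of 9527 with saline, and both comparisons share the 9527 mice. Against saline, 9527+oil gave 0 of 10 members past the threshold over both sexes (0% of genes) and 0 at an unadjusted p under 0.05 (1.07% of genes higher, 1.93% lower), with a median log2 fold change of 0.11 over the members and 0.03 over all genes. Without the 4 libraries the median over the members was -0.00392, and 0 passed. With all mice, Ctsc was the 1 member that was lower without overlap in female mice, where all 3 mice given 9527+oil were below all saline mice (7.05% of genes lower without overlap), with a log2 fold change of -0.30 ± 0.21 (adjusted p = 0.914). Without saline mouse 3, all 10 members had a log2 fold change below 0 in female mice given 9527+oil (median -0.20, against 0.07 with all mice). Ctsc, Ctsd and Ctsl were then lower without overlap (16% of genes), 1 member (Ctsl) had an unadjusted p under 0.05 (5.96% of genes lower), and 0 passed.

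With oil alone, members stood apart from saline in male mice. In male mice, Ctsk was at 33.5, 43.1 and 40.4 CPM against 23.0, 21.7 and 24.4 CPM in saline mice, with a log2 fold change of 0.76 ± 0.12 (adjusted p = 0.169). Ctss was at 251, 359 and 345 CPM against 217, 159.9 and 226 CPM, with a log2 fold change of 0.66 ± 0.17 (adjusted p = 0.345). Ctsb was at 845, 681 and 901 CPM against 582, 581 and 536 CPM, with a log2 fold change of 0.51 ± 0.12 (adjusted p = 0.314). None of these passed the threshold.

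In all, 8 members were higher in every male oil mouse than in every male saline mouse (7.44% of genes), all but Ctse and Ctsl. They had log2 fold changes from 0.33 (Ctsa) to 0.76 (Ctsk), and each had an unadjusted p under 0.05 (5.75% of genes). Ctsl was the exception, lower in every oil mouse (114, 117 and 121 CPM) than in every saline mouse (137, 127 and 122 CPM), as were 5.38% of genes, by a log2 fold change of -0.13 ± 0.09. By edgeR, 0 of 10 passed (0.00671% of genes), and DESeq2 called 4 (Ctsb, Ctsk, Ctss and Ctsz; 1.31% of genes). Female oil mice overlapped with saline for all 10 members, where 2.93% of genes were higher and 1.01% lower without overlap. Without saline mouse 3 and oil mouse 6, 7 of 10 members had a log2 fold change below 0 in female oil mice (median -0.12, against 0.02 and 3 of 10 with all mice), and Ctsa was lower without overlap (11.3% of genes). Ctsk was at 19.9, 18.4 and 24.8 CPM and Ctsb at 448, 579 and 328 CPM in them, the third value being mouse 6, with a high mitochondrial share. The male minus female difference for oil did not pass for any member, and without the 4 libraries 4 members (Ctsa, Ctsb, Ctsd and Ctsk) had an unadjusted p under 0.05 for a larger log2 fold change in male mice (3.89% of genes), Ctsk with a difference of 0.90 ± 0.20 and an adjusted p of 0.763. Of 10 MHC class II pathway genes, 0 passed in male oil mice and 6 had an unadjusted p under 0.05 with a higher level, Cd74, whose product is the invariant chain cut by cathepsin S, at 0.48 ± 0.10 (adjusted p = 0.256). Over both sexes, Ctsk had a log2 fold change of 0.47 ± 0.18 and was the only member with an unadjusted p under 0.05 (0.28% of genes). There were 3 without the 4 libraries (Ctsk, Ctss and Ctsz; 1.62% of genes), and 0 passed.

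**Figure D4:**
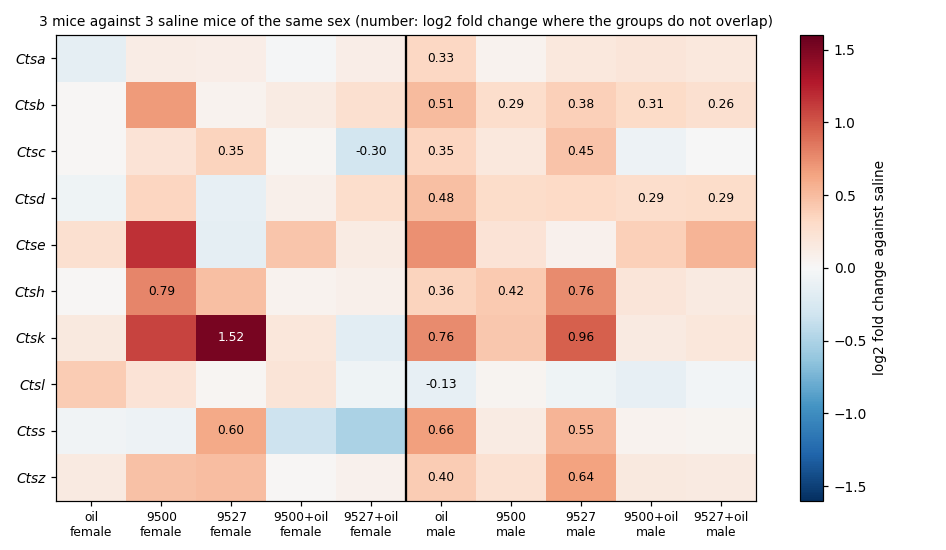
Log2 fold change of each cathepsin against saline mice of the same sex, as colour (red higher, blue lower), for 5 treatments in female (left) and male (right) mice, with the value printed where the 3 treated mice do not overlap with the 3 saline mice. Printed values are most frequent in male mice given oil (9 members) and 9527 (6 members).

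With Corexit 9500 alone, no member passed. Ctsh was the only member that was apart from saline in both sexes (0.648% of genes). It was at 353, 264 and 363 CPM in female and 428, 448 and 349 CPM in male mice. Its log2 fold change of 0.60 ± 0.20 did not pass (adjusted p = 0.972). Ctsk had 61.1, 16.2 and 38.5 CPM in female and 31.6, 38.0 and 23.8 CPM in male mice, so that 2 of the 3 female mice lay within the range of the female 9527 mice and mouse 8 within that of saline. The log2 fold change of Ctsk was 0.75 ± 0.30. Of the members 0 of 10 passed (0% of genes), and 2 had an unadjusted p under 0.05 (1.3% of genes). Without saline mouse 3, 3 members did (Ctsc, Ctsh and Ctsk; 3.66% of genes), and 0 passed. Within female mice, Ctsh was the 1 member without overlap, against 3.54% of genes, and without saline mouse 3 both Ctsc and Ctsh were (7.46% of genes). In male mice, Ctsb (0.29 ± 0.12) and Ctsh (0.42 ± 0.12) did not overlap with saline, 2 members against 6.35% of genes.

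After the mixture 9500+oil, over both sexes no member had an unadjusted p under 0.05 (0.202% of genes higher, 0.215% lower), and the median log2 fold change was 0.13 over the members and 0.04 over all genes. The median over the members was 0.05 without the 4 libraries, and in female mice all 10 members had a log2 fold change below 0 (median -0.05, against 0.07 with all mice), with Ctsk lower without overlap (12.5% of genes). In male mice Ctsb and Ctsd did not overlap with saline after 9500+oil (7.84% of genes) and after 9527+oil (5.73% of genes). Ctsd was at 760.3, 825 and 969 CPM and 757, 907 and 899.9 CPM, respectively, against 746, 723 and 627 CPM in saline mice. Compared with 9500 alone, 9500+oil had 9 of 10 members lower in fold change (8 of 10 without mouse 14) and 0 past the threshold (0% of genes). Ctsh was the 1 member with an unadjusted p under 0.05 (1.38% of genes lower; 3 members, with Ctsc and Ctsk, and 2.07% of genes without 9500+oil mouse 14), with a log2 fold change of -0.46 ± 0.16.

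Genes that work with cathepsins were read from lists fixed by name. Of 13 other cathepsins, 3 (Ctsf, Ctso and Ctsw) were measured, and 0 passed after 9527 in either the fit over both sexes or without the 4 libraries. Ctsf was at 11.8, 12.1 and 22.1 CPM in male 9527 mice and 16.3, 18.1 and 21.8 CPM in male saline mice (lowest, median and highest of 3), and the groups overlapped. Of 37 other lysosomal hydrolases, 0 passed with all mice for 9527 over both sexes, with a median log2 fold change of 0.19 against 0.01 for all genes. Without the 4 libraries 1 of 37 passed, a share near the 2.12% of all genes, the legumain gene Lgmn (0.48 ± 0.08, adjusted p = 0.0104), whose product cuts several cathepsin precursors. Lgmn was at 179.9, 202 and 221 CPM in female and 208, 209.5 and 238 CPM in male 9527 mice, with no overlap with 123, 153 and 164 CPM (female) and 139.9, 156 and 159.8 CPM (male) in saline mice. The direction was the opposite after 9527+oil against 9527 (-0.46 ± 0.08, adjusted p = 0.00875, without mouse 11).

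Of 17 lysosomal membrane proteins and activators, 0 passed for 9527 over both sexes with all mice, and 2 passed without the 4 libraries (2.12% of all genes). These were Npc2 (0.52 ± 0.07, adjusted p = 0.00519), a cholesterol carrier, and the tetraspanin Cd63 (0.56 ± 0.11, adjusted p = 0.023). In male mice alone, 1 of the 17 passed (0.114% of all genes), Cd68, the macrophage lysosomal membrane protein, with a log2 fold change of 0.83 ± 0.11 (adjusted p = 0.0468). Of 18 measured subunits of the vacuolar proton pump that acidifies lysosomes, 1 passed without the 4 libraries (2.12% of all genes), Atp6v0d2 (0.67 ± 0.13, adjusted p = 0.0221), and the median of the 18 was 0.05. Of 13 sorting factors and lysosome regulators 0 passed without the 4 libraries (2.12% of all genes), with Gnptab, of the mannose 6-phosphate tag (0.42 ± 0.10), and Tfec, a relative of TFEB (0.95 ± 0.22), at adjusted p values of 0.0521 and 0.0526. In the same fit, of 10 MHC class II pathway genes 0 passed, and of 9 tested cathepsin inhibitors 0 passed, the stefin gene Cstb having the smallest p (0.39 ± 0.11, adjusted p = 0.0951). Also in that fit, of 7 tested proteases activated by cathepsin C 0 passed, with a median log2 fold change of -0.42. None of these 4 lists had a gene past the threshold with all mice (0.0326% of all genes).

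Among 9 tested genes of osteoclast-like matrix breakdown, the macrophage elastase gene Mmp12 rose as the 1 gene past the threshold with all mice (0.0326% of all genes), at 2.60 ± 0.29 (adjusted p = 0.0121). Mmp12 was at 38.7, 71.9 and 82.4 CPM in female and 25.3, 26.6 and 61.0 CPM in male 9527 mice. Saline mice had 7.22, 8.36 and 11.3 CPM (female) and 6.47, 7.36 and 7.94 CPM (male), and 9527+oil mice had 6.06, 6.15 and 6.51 CPM (female) and 6.41, 7.00 and 9.79 CPM (male). Every 9527 mouse was above every saline and every 9527+oil mouse. Of the 9, 2 passed without the 4 libraries, Mmp12 and Atp6v0d2 (2.12% of all genes).

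Similarity of pattern was measured as the lower of the Pearson correlations of log2 CPM over the 18 female and the 18 male mice, among 12720 genes. It is a description over libraries that share treatments and depth. The genes most like Ctsk were Lgmn (0.84), Mmp12 (0.82) and Serpina3n (0.82). Those most like Ctsd were Hexa (0.92), Ddt (0.87) and C1qc (0.87), and those most like Ctsb were Efhd2 (0.90), Pigs (0.90) and C1qa (0.90). Ctsh was most like Npc2 (0.91), and Ctsz like F7 (0.89). Ctss was most like Clec7a (0.83), a receptor of myeloid cells, Ctsa like Psap (0.85), the saposin precursor, and Ctsc like Sgpp2 (0.81). Ctsl was most like Wfdc2 (0.78) and Ctse like Treml4 (0.80). Over the 18 male mice, the 10 pairs among Ctsc, Ctsh, Ctsk, Ctss and Ctsz had correlations from 0.71 to 0.90, and Ctsl had correlations from -0.28 to 0.01 with these 5. Over the 18 female mice the same 10 pairs ranged from -0.09 to 0.82, and Ctsl had correlations from -0.14 to 0.76 with these 5. These female mice include the 4 libraries of high mitochondrial share. In these 4, the medians of Ctsh and Ctsz were 0.59 and 0.74 times those of the other 14 female libraries. For Ctsc, Ctsk and Ctss the ratios were 1.31, 1.39 and 1.32. The part of these libraries in the correlations was not tested.

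Markers of alveolar macrophages were summed in the same mice. Of 12 listed, 11 were measured, none of them at 0 in all libraries. Their summed level was 1294 to 2285 CPM in female 9527 mice, 730.4 to 832 in saline and 494 to 528 in 9527+oil mice. In male mice it was 909.7 to 1711 CPM with 9527, 710.2 to 906 with saline, 1009.7 to 1056 with oil and 563 to 894 with 9527+oil. Chil3, the most abundant of the list after 9527, was at 847, 933 and 1773 CPM in female and 479, 766 and 1188 CPM in male 9527 mice. Without the 4 libraries, 3 of the 11 passed for 9527 against saline, all higher (Mrc1, Itgax and Chil3; 2.12% of all genes), and 5 passed for 9527+oil against 9527, all lower (with Ear2 and Krt79; 6.62% of all genes). Their part in the cathepsin levels was not tested.

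**Figure D5:**
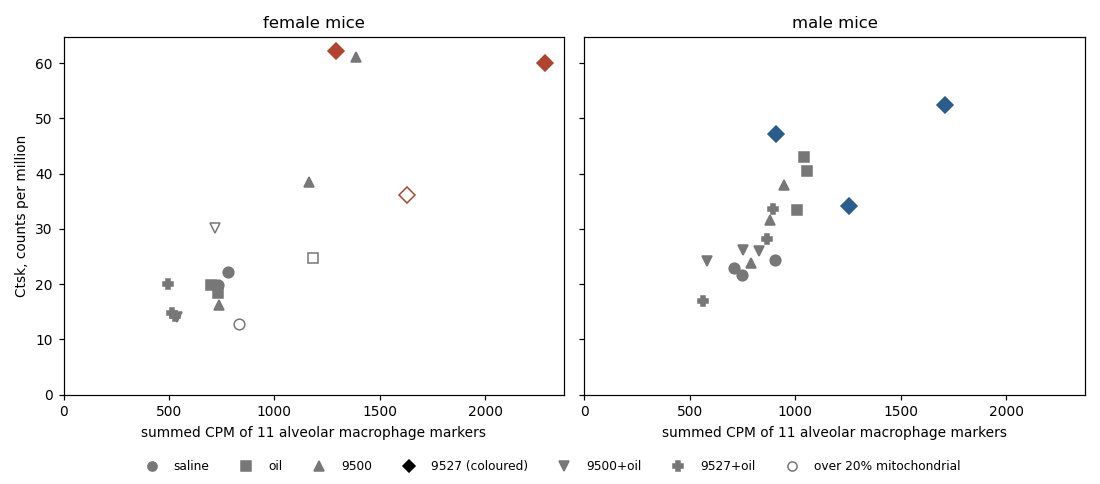
Ctsk in CPM against the summed CPM of 11 alveolar macrophage markers, 1 point per mouse, in female (left) and male (right) mice, with 9527 mice coloured and libraries over 20% mitochondrial counts open. All 9527 mice lie above 30 CPM of Ctsk and above the marker sums of the saline mice of their sex, the saline mice all lie below 25 CPM of Ctsk, and some oil and 9500 mice overlap with the 9527 mice.

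Markers of monocytes and interstitial macrophages (11 of 12 measured) showed no such separation. They summed to 757 to 1261 CPM in male 9527 mice and 789 to 929.8 in male saline mice, but to 1018 to 1388 in male oil mice, above all male saline mice. In female mice they summed to 129 to 1207 CPM with saline and 199.6 to 899 with 9527. Neutrophil markers (10 of 10 measured) summed to 123 to 284 CPM with 9527, 299.6 to 326 with saline and 344 to 1023 with oil in male mice, so that the male 9527 mice were below and the male oil mice above all male saline mice. In female mice they summed to 122 to 183 CPM with 9527, 176 to 233 with saline and 170.0 to 197 with oil, and these ranges overlapped. Proliferation markers (7 of 7 measured) summed to 244 to 291 CPM in female and 156 to 350.4 in male 9527 mice, above the 93.2 to 142 and 75.7 to 104 of saline mice. With all mice, 5 of these 7 passed for 9527+oil against 9527, all lower, against 0.558% of all genes. The part of these cells in the cathepsin levels was not tested.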

How the data were processed

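The paper states that Salmon estimated reads per transcript of the GRCm38 mouse transcriptome and that tximport combined them. The authors deposited these expected counts, already whole numbers, in a table of 18 female mice (18120 rows) and 1 of 18 male mice (18295 rows), under gene symbols. Within each of these, 4 rows with a repeated name were left out, and 24 rows whose names had become dates were kept. Samples were grouped by their labels. Mice are numbered 1 to 18 within each sex, so treatments share no number, and a number shared by a female and a male names different mice.

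All genes were tested in R 4.3.3 with edgeR 4.0.16 (trimmed mean of M values (TMM), filterByExpr, quasi-likelihood F-test, Benjamini-Hochberg over all genes tested, threshold 0.05), on the mice of the groups compared, with sex as a covariate in fits over both sexes. The paper used DESeq2, which is an alternative here (1.42.0), as is limma-voom (3.58.1). SEs were obtained from the log2 fold change and its F statistic. Levels are CPM, counts in a library scaled within its table to an effective size of 1000000, and log2 CPM use a prior count of 2. Levels per kilobase divide by the mean length of a gene's coding transcripts in GENCODE M21. P-values set a difference against the spread between mice that the fit leaves. In fits over both sexes with sex as a covariate, this spread includes any difference of the treatment effect between the sexes. No pair of libraries was the same (lowest chi-square per gene 11.4). The steps were tested on simulated data.

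The members, lists and tests were chosen with earlier results of these data known. All members were named. From each list, the 2 genes with the smallest p in a comparison and any past the threshold may be named, and for each member the 3 most similar genes with a mean of at least 1 log2 CPM in both sexes.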

Additional observations from a re-analysis of the deposited data

How the results depend on the processing

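Of the 22 comparisons, 18 had 0 members called under every alternative run. For 9527 against saline over both sexes, the 0 members of the reported fit became 2 with DESeq2 (127 genes called in all, against 5), 1 with all 6 groups in one fit (106 genes), 5 with limma-voom and quality weights (797 genes) and 5 without the libraries over 20% mitochondrial counts (330 genes). In male mice, 9527 gave 6 members with DESeq2 (594 genes, against 17), 4 with all 6 groups in one fit (284 genes), and 3 each with no filter on low counts (70 genes), with 10 counts in every mouse (89 genes) and with limma-voom (111 genes). Leaving out 1 mouse at a time gave 0 to 3 members there, the 3 without male 9527 mouse 12 (211 genes). For oil in male mice, DESeq2 called 4 (195 genes, against 1). For 9527+oil against 9527, the 0 members became 3 with DESeq2 (636 genes, against 86), 3 with all 6 groups in one fit (159 genes), 5 with limma-voom (1559 genes), 2 with 10 counts in every mouse (102 genes), and 1 each with DESeq2 size factors (87 genes) and without the sex term (88 genes). Leaving out 1 mouse at a time gave 0 to 5 members, 5 without female 9527 mouse 11, which is also the fit without the libraries over 20% mitochondrial counts (1037 genes), and 1 without male 9527 mouse 12 (129 genes). The cause of these differences was not tested.

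For 41 pairs of a member and a comparison, the unadjusted p was under 0.05 or the groups did not overlap. Their direction was the same in all 609 alternative values, and 20 of the 41 passed in at least 1 alternative. The pairs were chosen for a difference in these same mice, so a kept direction is not independent support. Other members turned direction: without the libraries over 20% mitochondrial counts, members above 0 in female mice went from 6 to 0 of 10 for 9527+oil and from 8 to 0 for 9500+oil. No paired analysis was possible because the treatments compared share no mouse number, and a number that occurs in both sexes names different mice. With 3 mice a group, whose log2 CPM had a median SD of 0.29, small differences could not be called. Ctse, at few counts, is the least precise member. Female results rest on groups in which 1 library of high mitochondrial share is 1 of 3 mice (saline, oil, 9527 and 9500+oil).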

Other observations

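Markers of other lung cells also differed in the mice given 9527. In male mice, 7 of 7 proliferation markers, such as Top2a, were higher in every 9527 mouse than in every saline mouse, against 10.5% of all genes, and 0 of them passed. All 7 endothelial markers had a log2 fold change below 0, 6 of them lower without overlap, against 9.59% of all genes, and 0 passed. Without the 4 female libraries of high mitochondrial share, over both sexes, 6 of 7 proliferation markers passed, all higher, against 2.12% of all genes. In the same fit 1 of 7 fibroblast, 1 of 8 type 2 cell, 2 of 7 endothelial and 1 of 5 ciliated cell markers passed. The fibroblast collagen gene Col3a1 (log2 fold change 0.58, adjusted p = 0.0221 by edgeR) and the type 2 cell gene Lamp3 (0.48, adjusted p = 0.0413) were higher. The endothelial genes Gpihbp1 (-0.37, adjusted p = 0.0319) and Cldn5 (-0.55, adjusted p = 0.0334) and the ciliated cell gene Tppp3 (-0.45, adjusted p = 0.0262) were lower.

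For 9527+oil against 9527, without female mouse 11, the directions were the opposite for Col3a1 (-0.58, adjusted p = 0.0164 by edgeR), Lamp3 (-0.46, adjusted p = 0.0165) and Cldn5 (0.45, adjusted p = 0.0325), and both comparisons share the 9527 mice. In that fit 2 of 7 fibroblast, 1 of 8 type 2 cell and 3 of 7 endothelial markers passed, against 6.62% of all genes. There, the inhibitor gene Cstb, which encodes a stefin and was the 1 of 9 inhibitors that passed, was also lower (-0.80, adjusted p = 0.0174). The mucin gene Muc5ac (-1.79, adjusted p = 0.0143) and Dcstamp, of macrophage fusion (-4.15, adjusted p = 0.00999), were lower too. The summed level of 8 club and goblet cell markers did not follow Muc5ac. With all mice it was 20378 to 23452 CPM in male 9527+oil mice, above the 15323 to 18748 CPM of male 9527 mice. In female mice the ranges overlapped (13301 to 16209 CPM with 9527+oil and 9889 to 16071 CPM with 9527).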
